A study of Homo sapiens with 14 samples.

Results

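WNT ligands and the secreted proteins that restrain them were followed in IMR90 human lung fibroblasts. The 10 genes were taken from a list, out of 54628 gene symbols in the files: the ligands WNT16, WNT2, WNT5A and WNT5B, the dickkopf genes DKK1, DKK2 and DKK3, and the frizzled-related genes SFRP1, SFRP2 and FRZB. They were listed after earlier results of these data were known, in which WNT16 was seen to be lower after HMGB2 knockdown, so values of that comparison are given as a description with no test. The 14 RNA-seq libraries fall into 7 groups of 2. Untreated cells gave WT 1 and 2, and untreated cells with the chromatin protein HMGB2 knocked down gave siHMGB2 1 and 2. The other 10 libraries came from cells kept for up to 6 days in 10 µM of inflachromene (ICM), which binds the HMGB1 and HMGB2 proteins, to induce senescence. These are ICM 1 and 2, ICM 3 and 4, and ICM with a knockdown labelled siSRRM2, siBANF1 or siCTCF, each with replicates 1 and 2. ICM 3, ICM 4 and the siCTCF libraries carry labels of another form, and their cell line field reads IMR91 to IMR94 where the others read IMR90, so they were treated as a separate set, the second set. The growth protocol names isolates I79 and I83 at passage 5, without saying which library came from which. No library has a non-targeting siRNA in its label, so each knockdown was compared with cells that had none named. Nothing says that replicates came from separate cultures, so p-values measure only the spread between these libraries, which may be technical.

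WNT proteins are secreted lipid-modified ligands that bind frizzled receptors. With LRP co-receptors they stabilise beta-catenin, which acts with TCF and LEF factors on target genes, while WNT5A and WNT5B act largely through ROR receptors without beta-catenin. DKK1 and DKK2 bind the LRP co-receptors, and frizzled-related proteins hold WNT ligands through a frizzled-like domain. In human fibroblasts WNT16 has been described as a ligand that is raised in senescence and after DNA damage, and WNT2 as one that is lost early in senescence.

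Upstream sequences are shown for WNT16, the gene that led to the list, for WNT2, the other ligand near 0 in the second set, and for DKK1, which did not follow the ligands. Each is the 250 bases before the RefSeq gene start on GRCh38.p14, written 5′ to 3′ along the gene. The windows are chr7:121328750-121328999 on the plus strand for WNT16, chr7:117323059-117323308 on the minus strand for WNT2 and chr10:52314031-52314280 on the plus strand for DKK1. The start used for WNT16 lies inside the span that RefSeq gives the whole gene. Capitals mark matches, on either strand, to the CCAAT box, to the TATA box letters TATAAA, or to the TCF/LEF-type letters, which are CTTTG followed by A or T at each of the next 2 bases.
WNT16: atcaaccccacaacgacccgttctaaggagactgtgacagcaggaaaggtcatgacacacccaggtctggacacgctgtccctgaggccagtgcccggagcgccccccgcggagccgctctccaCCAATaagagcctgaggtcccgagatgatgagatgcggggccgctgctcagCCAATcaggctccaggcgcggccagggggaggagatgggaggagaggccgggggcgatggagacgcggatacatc
WNT2: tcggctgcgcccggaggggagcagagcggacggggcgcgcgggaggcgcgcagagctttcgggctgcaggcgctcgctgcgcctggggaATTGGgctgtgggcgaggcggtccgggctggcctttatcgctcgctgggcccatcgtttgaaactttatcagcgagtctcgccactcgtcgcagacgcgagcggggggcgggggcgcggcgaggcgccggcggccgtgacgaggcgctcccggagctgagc
DKK1: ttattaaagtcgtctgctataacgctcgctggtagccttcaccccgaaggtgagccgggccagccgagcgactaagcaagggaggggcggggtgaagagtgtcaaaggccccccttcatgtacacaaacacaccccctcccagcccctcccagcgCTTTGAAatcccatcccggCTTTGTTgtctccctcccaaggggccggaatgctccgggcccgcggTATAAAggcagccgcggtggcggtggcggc
In DKK1 the window holds TATAAA at 30 bases and the TCF/LEF-type letters at 95 and 76 bases before the start. In WNT16 it holds CCAAT at 126 and 75 bases before the start and in WNT2 its reverse complement, ATTGG, at 161 bases. RefSeq windows were matched for 7 of the 10 genes, the others being DKK2, DKK3 and SFRP1. Of the 7, only DKK1 held TATAAA or the TCF/LEF-type letters, which 10.7% and 12% of all 35116 windows of this length hold. CCAAT, held by 32% of all windows, was in those of WNT16, WNT2, SFRP2 and FRZB. The AP-1 letters TGANTCA were in none of the 7 and in 6.57% of all, and the GC box GGGCGG was in those of WNT2, WNT5A, DKK1, SFRP2 and FRZB and in 42.6% of all. Both strands were searched for each motif, no match in the windows shown overlaps another, and a match in these windows is a description of letters only.

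Depth was 22336161 to 58257456 gene counts per library and was lowest in the second set. HMGB2 was at 11.4% and 12.6% of the WT mean in siHMGB2 1 and 2, and CTCF was at 76.5% and 24.6% of the ICM 3 and 4 mean in siCTCF 1 and 2. SRRM2 was at 43.4% and 43.6% of the ICM 1 and 2 mean in the libraries labelled siSRRM2, but at 33.7% and 9.72% in those labelled siBANF1, where BANF1 itself was at 73.4% and 158.8%. The SRRM2 and BANF1 labels are therefore quoted as labels throughout. All 10 fibroblast markers, among them COL1A1 and VIM, were detected in every library. Their sum was 24550 to 44180 CPM (a gene's counts scaled to a library of 1e+06 gene counts) in untreated cells, 4972 to 19920 CPM in ICM 1 and 2 and the knockdowns of their set, and 2060 to 4965 CPM in the second set. Markers of other cells summed to at most 1.21 CPM (epithelial), 2.54 CPM (endothelial) and 12.99 CPM (immune). The immune sum was nearly all CD14, at 12.9 CPM in ICM 1, 5.505 and 6.253 CPM with the siSRRM2 label, 4.23 CPM in siBANF1 1 and at most 1.34 CPM elsewhere, while PTPRC was at 0.0894 CPM or less and CD3E at 0 in all 14. Small RNA genes took 3.12% to 5.98% of counts in ICM 1 and 2 and the knockdowns of their set, against 0.00521% to 0.00831% elsewhere. ICM 1 and 2, and the pair labelled siBANF1, stood far apart within their group, while the WT and siSRRM2 pairs lay close. WNT16, WNT5A and DKK3 were at 80.8% to 129% of the WT mean in ICM 1 and siBANF1 1, but at 5.23% to 55.7% in ICM 2, siBANF1 2 and both libraries labelled siSRRM2. Other genes of the list did not all stay near WT in ICM 1 and siBANF1 1. There WNT2 was at 173.3% and 18.0%, WNT5B at 244.9% and 155.8%, and SFRP1 at 79.5% and 22.0%. DKK1 was at 47.2% and 31.1%, and FRZB at 29% and 13.3%. In the second set ICM 3 lay beside siCTCF 1, and ICM 4 beside siCTCF 2, for the abundant genes of the list.

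WNT16 lies at chr7:121325367-121341104 (plus strand). Its level was 35.7 and 29.9 CPM in WT and 6.54 and 3.84 CPM in siHMGB2. In ICM-treated cells it was 26.5 CPM in ICM 1 but 1.79 CPM in ICM 2. The libraries labelled siSRRM2 gave 2.81 and 2.704 CPM, and those labelled siBANF1 gave 35.0 and 1.72 CPM. In the second set WNT16 was almost without counts: ICM 3 and 4 gave 0.0418 and 0 CPM, and siCTCF gave 0.269 and 0 CPM. A count of 0 in ICM 4 allows up to 0.118 CPM, and these limits cover counting error only. In none of the 10 ICM-treated libraries did WNT16 exceed the highest WT value. Ordered by group mean, WT (32.8 ± 4.10 CPM, SD, n = 2) and siBANF1 (18.4 ± 23.5) overlapped, as did siBANF1 with ICM 1 and 2 (14.2 ± 17.5) and ICM 1 and 2 with siHMGB2 (5.19 ± 1.91). The siSRRM2 pair (2.76 ± 0.0735) lay below siHMGB2 without overlap, and above siCTCF (0.134 ± 0.190), which overlapped ICM 3 and 4 (0.0209 ± 0.0296).

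**Figure D1:**
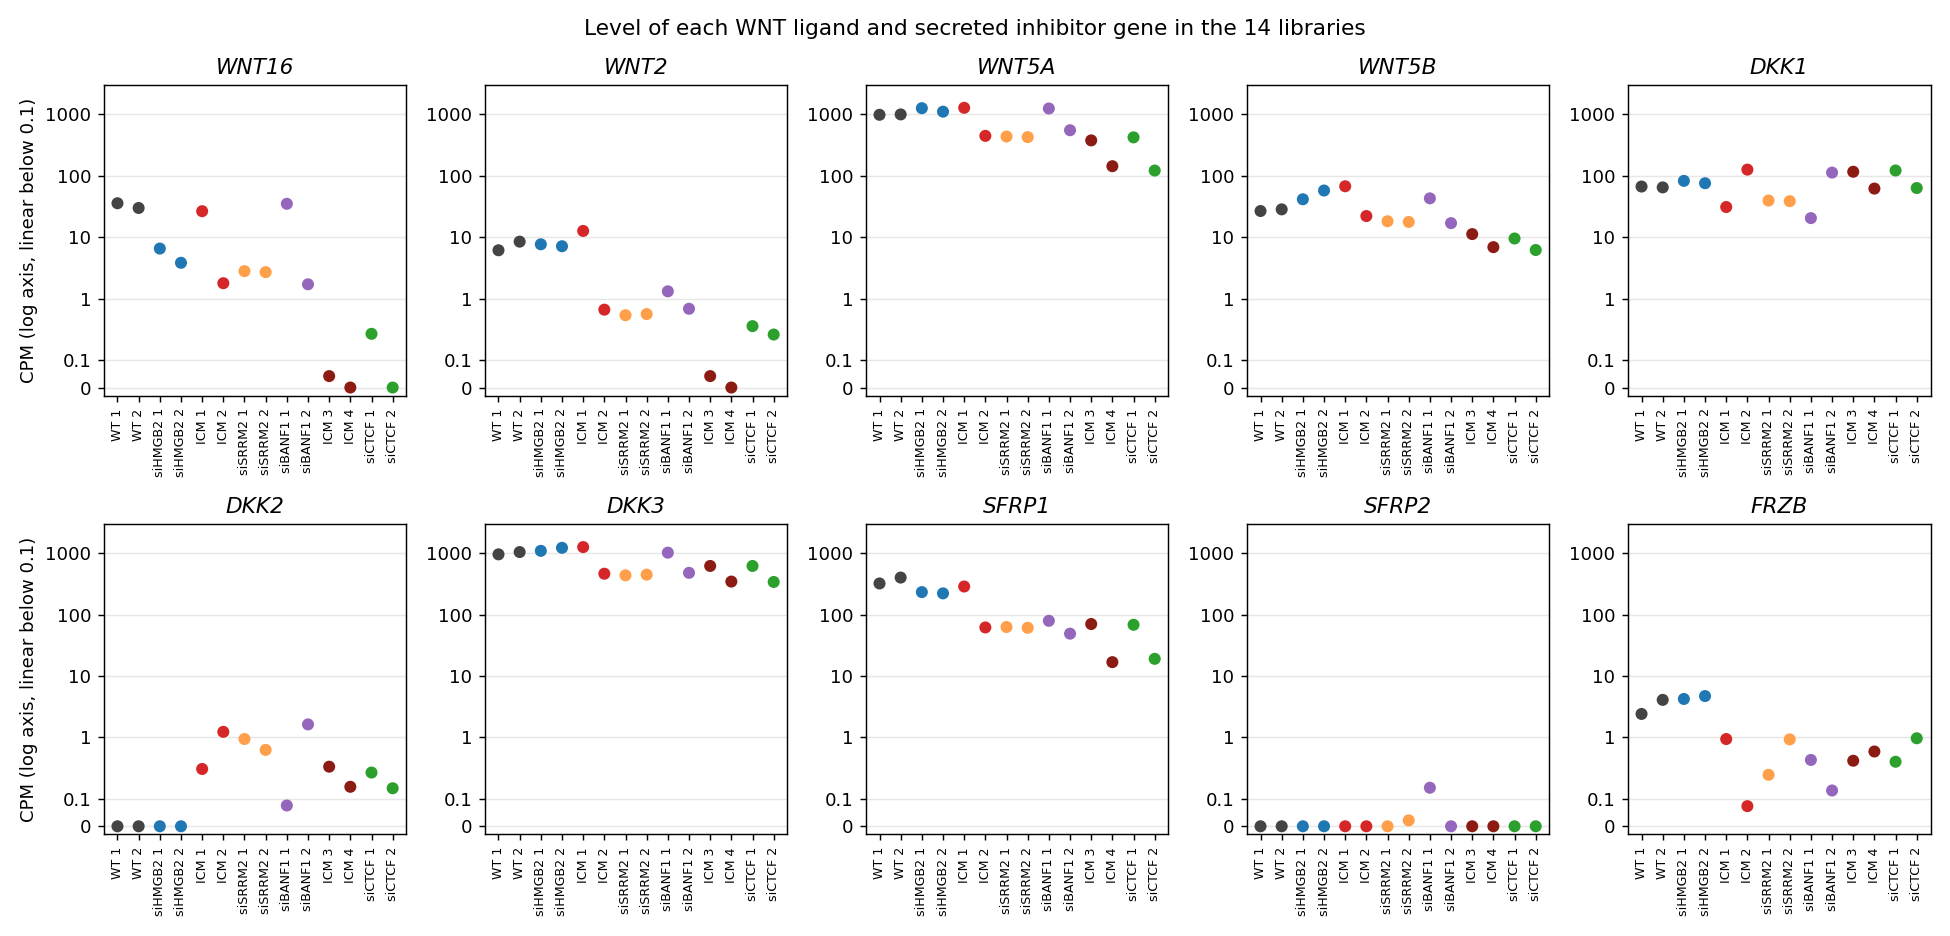
Level of each of the 10 genes in CPM (log axis, linear below 0.1), 1 point per library, with groups by colour. WNT16 runs from 35.7 CPM in WT 1 to 0 in ICM 4, while DKK1 stays between 20.5 and 125.8 CPM.

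WNT2, a beta-catenin-pathway ligand at chr7:117275451-117323058 (minus strand), was at 6.14 and 8.48 CPM in WT and 7.68 and 7.14 CPM in siHMGB2. ICM 1 had the highest level of all libraries, 12.7 CPM, against 0.663 CPM in ICM 2. The libraries labelled siSRRM2 held 0.539 and 0.563 CPM and those labelled siBANF1 held 1.32 and 0.687 CPM. The second set was again lowest, with 0.0418 and 0 CPM in ICM 3 and 4 and 0.358 and 0.261 CPM in siCTCF. WNT2 exons share 170 bases with AC002465.1 on the other strand, and whether counting used strand is not given in the sources used here, so reads of the shared bases cannot be told apart.

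WNT5A (chr3:55465715-55505263, minus strand), the main non-canonical ligand of fibroblasts, was the most abundant ligand in every library. It was at 981 and 994 CPM in WT, 1255 and 1103 CPM in siHMGB2, 1274 CPM in ICM 1 and 445 CPM in ICM 2. The siSRRM2 label gave 435 and 425 CPM, and the siBANF1 label 1241 and 549.9 CPM. In the second set ICM 3 and 4 held 376 and 143 CPM, and siCTCF held 421 and 122 CPM. WNT5B (chr12:1617056-1647212, plus strand), its close relative, ran from 67.5 CPM in ICM 1 to 6.20 CPM in siCTCF 2. It was at 26.7 and 28.4 CPM in WT, 41.4 and 57.5 CPM in siHMGB2, and 22.1 CPM in ICM 2. The siSRRM2 label gave 18.2 and 17.7 CPM, the siBANF1 label 42.9 and 17.0 CPM, ICM 3 and 4 gave 11.3 and 6.90 CPM, and the siCTCF pair 9.54 and 6.20 CPM. Both WNT5 genes were below both WT libraries in ICM 2, siBANF1 2, the pair labelled siSRRM2 and all 4 libraries of the second set.

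DKK1 (chr10:52314281-52317657, plus strand), an inhibitor of the LRP co-receptors and itself a known beta-catenin target, had another order. It was at 66.8 and 64.7 CPM in WT and 82.5 and 75.6 CPM in siHMGB2. ICM 1 was low, at 31.0 CPM, and ICM 2 was highest of all, at 125.8 CPM. The siBANF1 label repeated this order with 20.5 and 112.6 CPM, while the siSRRM2 label gave 39.5 and 38.6 CPM. For ICM 3 and 4 the level was 116.2 and 61.8 CPM, and for siCTCF it was 121.8 and 63.1 CPM. The libraries lowest in DKK1, siBANF1 1 and ICM 1, were the ICM-treated ones highest in WNT5A. DKK1 shares 212 exonic bases with the antisense gene PRKG1-AS1, which had 201 counts over all 14 libraries.

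DKK2, at chr4:106921802-107036313 (minus strand), had 0 counts in all 4 untreated libraries and counts in all 10 ICM-treated ones. ICM 1 and 2 gave 0.307 and 1.23 CPM, the siSRRM2 label 0.944 and 0.627 CPM, and the siBANF1 label 0.0761 and 1.63 CPM. In the second set ICM 3 and 4 gave 0.335 and 0.158 CPM, and siCTCF gave 0.269 and 0.149 CPM. A count of 0 in the WT libraries allows up to 0.0894 and 0.0823 CPM. DKK3 (chr11:11963036-12009745, minus strand), a divergent family member, was abundant throughout, from 338 CPM in siCTCF 2 to 1249 CPM in ICM 1. It was at 951 and 1037 CPM in WT, 461 CPM in ICM 2, and 616 and 343 CPM in ICM 3 and 4.

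SFRP1 (chr8:41261962-41309473, minus strand), which binds WNT ligands outside the cell, was at 319.8 and 398.7 CPM in WT and 231 and 221 CPM in siHMGB2. ICM 1 held 285 CPM, and the other 9 ICM-treated libraries held 79.0 CPM or less. ICM 2 gave 61.6 CPM, the siSRRM2 label 62.6 and 60.8 CPM, and the siBANF1 label 79.0 and 48.8 CPM. The second set gave 70.0 and 16.8 CPM for ICM 3 and 4, and 68.1 and 19.0 CPM for siCTCF. FRZB (chr2:182833275-182866637, minus strand), also named SFRP3, was low but detected in every library. It was at 2.41 and 4.09 CPM in WT and 4.23 and 4.71 CPM in siHMGB2, and at 0.0737 to 0.971 CPM in the ICM-treated libraries, so the treated and untreated libraries did not overlap. SFRP2 (chr4:153780591-153789083, minus strand) had 1 count in siSRRM2 2, 6 counts in siBANF1 1 and 0 elsewhere.

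**Figure D2:**
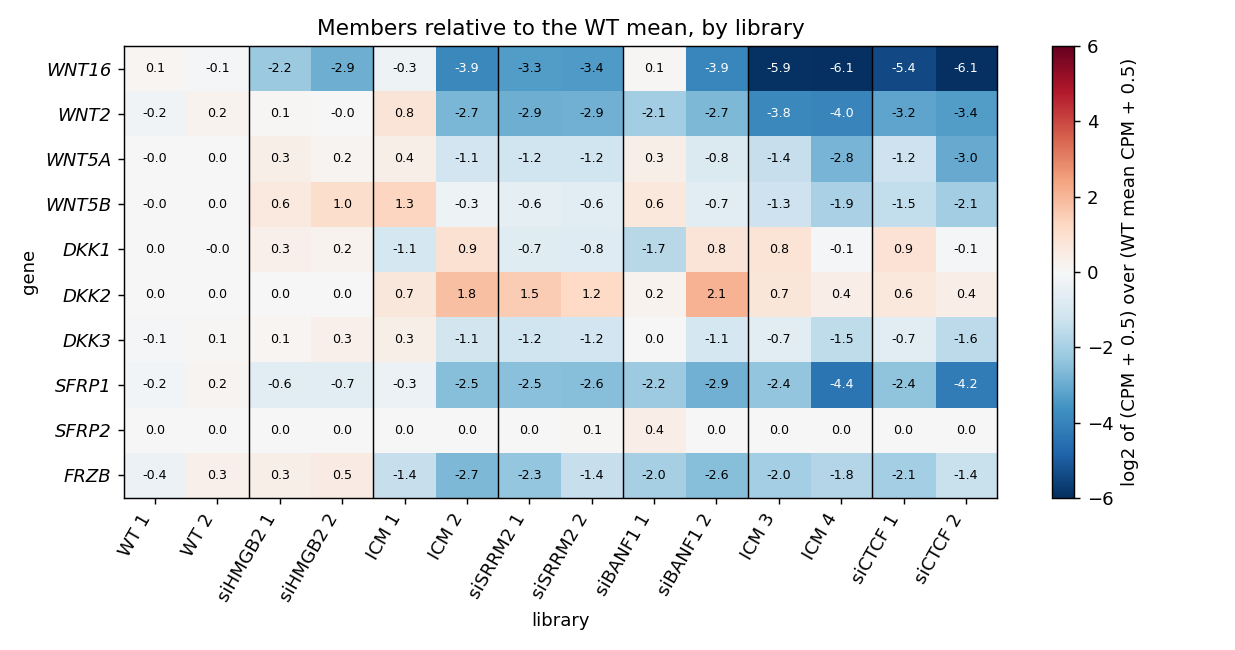
Heat map of the log2 ratio of each library's CPM + 0.5 to the WT mean + 0.5, with genes in rows and libraries in columns; blue is below WT and red above. WNT16 is blue in both siHMGB2 libraries, and most genes are blue in ICM 2, the siSRRM2 columns and the second set, except DKK2, which is red there, and DKK1, which is red in ICM 2, ICM 3 and siCTCF 1 but blue in the siSRRM2 columns.

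In the HMGB2 knockdown the 10 genes differed from one another. WNT16 was at 19.95% and 11.7% of the WT mean, a log2 fold change of -2.60. SFRP1 was at -0.61, and WNT5B was above WT at 0.91. The values were 0.33 for DKK1, 0.27 for DKK3, 0.52 for FRZB, 0.32 for WNT5A and 0.08 for WNT2, all on the log2 scale. In edgeR's quasi-likelihood fit of this comparison 10.7% of the 19126 genes kept were called at an adjusted p under 0.05, 1154 higher and 901 lower, or 939 higher and 1184 lower when scaled by total counts. Nothing is read from this share, since WNT16 was picked from the same contrast.

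Among 68 other WNT pathway genes, sorted into 6 lists, 44 were tested, and 4 were called after HMGB2 knockdown (edgeR), a share of 9.09% beside the 10.7% of all genes, so as a group the lists did not stand above the background. The receptor gene FZD8 rose from 7.57 and 7.22 CPM in WT to 22.2 and 38.4 CPM, a log2 fold change of 2.10 (SE 0.18, adjusted p = 2.12e-12). Another receptor gene, FZD4, fell by 0.58 on the log2 scale (adjusted p = 0.0284). WLS, which carries WNT proteins to the cell surface, fell by 0.52 (adjusted p = 0.0188), and ZNRF3, which removes frizzled receptors and is a target of the pathway, fell by 0.61 (adjusted p = 0.0292). The target AXIN2 was at -0.65 (SE 0.30, adjusted p = 0.205) and LEF1 at 0.17 (adjusted p = 0.808). No gene of the ligand, secreted modulator or transducer lists was called. FZD8 kept its call without any 1 library, whereas the count over the lists was 2 without WT 1 (FZD4, FZD8) or WT 2 (FZD8, WLS) and 1 without siHMGB2 2; a single fit of all 14 libraries called 0 genes in this comparison (908 at an unadjusted p under 0.05).

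ICM 3 and 4 against WT had the most calls of the 7 comparisons. Of the 9 genes tested (SFRP2 did not pass the filter on low counts), 7 fell, 1 rose and 1 was not called. The background was 47% of all 19126 genes called, with 23.5% of all genes lower and 23.5% higher. The 1 that rose, DKK2, had 0 counts in every untreated library. It passed that filter only through ICM-treated libraries, so its call is given as a description. Fewer cells of a type and less RNA per cell cannot be told apart in bulk RNA, and here treatment and set cannot be told apart either. The summed fibroblast markers were lower too, 4907 and 2433 CPM in ICM 3 and 4 against 24550 and 32480 CPM in WT. Mitochondrial transcripts were 0.241% and 0.252% of counts against 3.54% and 3.11%. The part of these in the result was not tested.

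WNT16 fell to 1 count over both libraries from 2288 in WT, a ratio of 1610 (95% counting interval 288.7 to 63630; edgeR adjusted p = 2.8e-05). WNT2 fell to 1 count from 515, a ratio of 362.5 (64.8 to 14340; adjusted p = 9.9e-05). These intervals are exact binomial (Clopper-Pearson) and cover counting error only. WNT16 was picked for its fall in siHMGB2 from these same 2 WT libraries, so its p-value is not free of that choice. The same limit applies to WNT16 in ICM 1 and 2 against WT. WNT5A fell by 2.10 on the log2 scale (SE 0.42, adjusted p = 0.00486), and WNT5B fell by 1.79 (SE 0.29, adjusted p = 0.00186). Both ligand pairs were lower in each ICM library than in each WT library.

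SFRP1 fell by 3.22 on the log2 scale (SE 0.59, adjusted p = 0.00342, edgeR). FRZB fell by 2.87 (SE 0.46, adjusted p = 0.00173) and DKK3 by 1.23 (SE 0.29, adjusted p = 0.0103). DKK2 rose from 0 counts to 12, at least 5.68-fold against a floor of 3 counts over the group, which is a description only. Its call (edgeR adjusted p = 0.0454) was lost with DESeq2 (adjusted p = 0.0663), in the single fit, and without WT 1, WT 2 or ICM 3. DKK1 was at 0.25 (SE 0.30, adjusted p = 0.51). Its sign rested on 1 library: it was -0.40 without ICM 3 and 0.67 without ICM 4. Without ICM 3 the fall was -4.73 for SFRP1, -3.09 for WNT5A and -1.84 for DKK3, and without ICM 4 it was -2.51, -1.55 and -0.84. The median over the 9 genes was -2.1, against 0.0 over all genes, or 0.177 over all genes when scaled by total counts. In the single fit of all libraries 5 of the 9 genes were called, WNT16, WNT2, WNT5A, WNT5B and SFRP1, against 5796 of all 19126 genes.

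**Figure D3:**
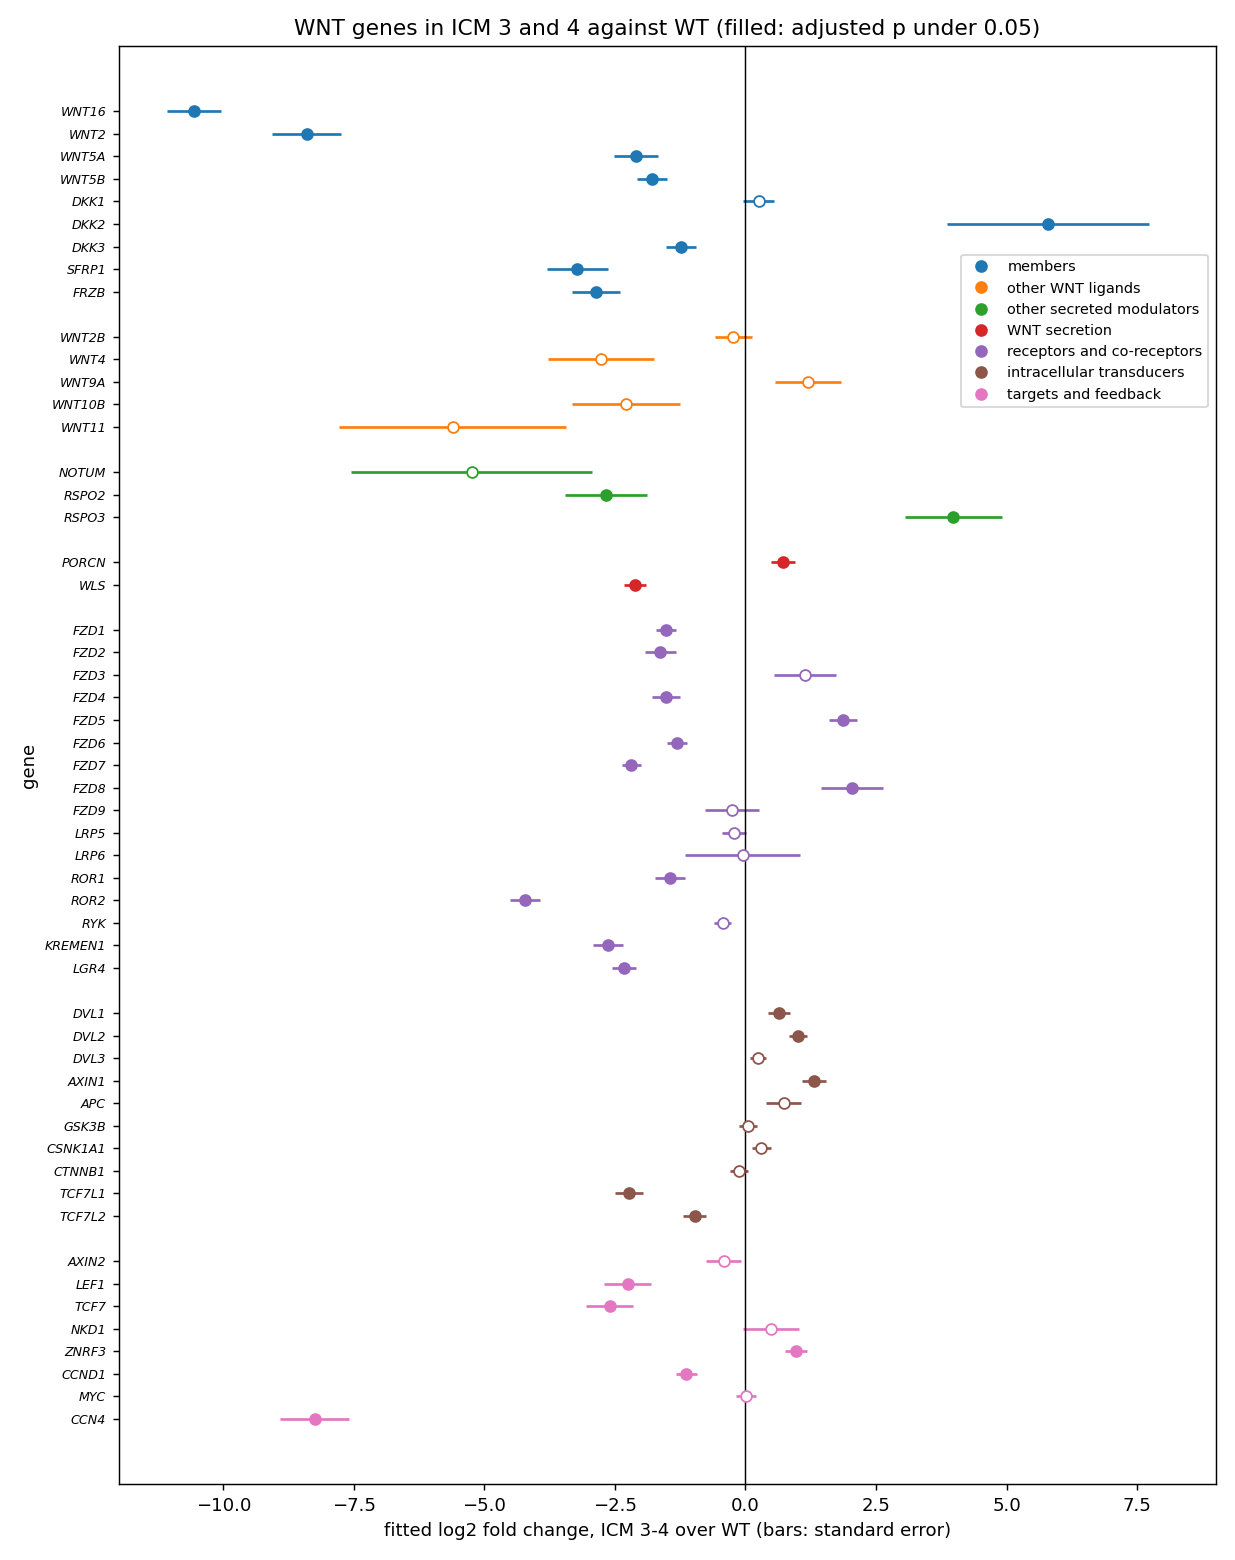
Fitted log2 fold change of ICM 3 and 4 over WT for the 9 genes of the list that were tested and for 44 other WNT pathway genes, coloured by list. Bars are standard errors derived from the test's F value, and filled points passed an adjusted p of 0.05. WNT16 and WNT2, with 1 count each in ICM 3 and 4, lie farthest to the left with CCN4, and their fitted values depend on the model's small added count.

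Of the 44 other pathway genes 8 rose and 17 fell in ICM 3 and 4 (edgeR), and 19 were not called. These are shares of 18.2% and 38.6%, beside 23.5% each way over all genes. Of 16 receptor genes, 9 fell and 2 rose (56.2% and 12.5%), with a list median of -1.37. The 2 that rose were FZD8 (2.04, SE 0.60, adjusted p = 0.0255) and FZD5 (1.87, SE 0.27, adjusted p = 0.0012). ROR2, a WNT5A receptor, went from 27.3 and 28.5 CPM to 1.30 and 2.13 CPM, a log2 fold change of -4.22 (SE 0.29, adjusted p = 7.19e-05). KREMEN1, a DKK1 receptor, was at -2.63 (adjusted p = 0.000338) and LGR4, an R-spondin receptor, at -2.33 (adjusted p = 0.000215). Of the secretion genes, WLS fell from 687 and 528 CPM to 168 and 151 CPM (-2.12, SE 0.21, adjusted p = 0.000222). PORCN, the enzyme that adds the lipid, rose by 0.71 (adjusted p = 0.0349), a call lost in the single fit (adjusted p = 0.0655), without the low-count filter and without either WT library.

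Among the 3 tested secreted modulators, RSPO3, an R-spondin that strengthens WNT signals, rose by 3.98 (SE 0.93, adjusted p = 0.00983, edgeR), from 0.328 and 0.0274 CPM in WT to 1.34 and 5.16 CPM. Like DKK2, RSPO3 passed the filter on low counts only through ICM-treated libraries. Its call, counted above among the genes that rose, is therefore a description. RSPO2 fell by 2.67 (adjusted p = 0.0244) at levels under 1 CPM, and its call was lost without either WT library. Of 10 transducers, 3 rose and 2 fell, shares of 30% and 20% beside 23.5% each way over all genes. The largest changes were in TCF7L1, a TCF factor (-2.23, adjusted p = 0.00054), AXIN1, of the complex that degrades beta-catenin (1.32, adjusted p = 0.00264), and DVL2, which relays the frizzled signal (1.00, adjusted p = 0.00262). Of 8 target and feedback genes, 4 fell and 1, ZNRF3, rose (0.97, adjusted p = 0.00677), shares of 50% and 12.5%. CCN4, a secreted matrix protein and beta-catenin target, went from 41.4 and 59.2 CPM to 0.376 and 0 CPM, TCF7 was at -2.60 (adjusted p = 0.00255) and LEF1 at -2.25 (SE 0.45, adjusted p = 0.00482). AXIN2, a widely used readout of beta-catenin activity, was at -0.42 (SE 0.33, adjusted p = 0.331), with 2.83 and 4.12 CPM in WT and 3.01 and 2.92 CPM in ICM 3 and 4. None of the 5 other ligands tested was called. In the single fit 18 of the 44 were called, against 5796 of all 19126 genes. RSPO2, RSPO3, TCF7 and TCF7L1 were among those lost (adjusted p = 0.0555, 0.158, 0.0677 and 0.0616).

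ICM 1 and 2 against WT, which shares its WT libraries with the comparison above, called none of the 9 genes (edgeR; 1, DKK2, at an unadjusted p under 0.05, and DKK2 also with DESeq2), against 0.173% of all genes. The log2 fold changes were -1.20 for WNT16 (SE 1.17, adjusted p = 0.581), -2.68 for FRZB (SE 1.20, adjusted p = 0.281), -1.06 for SFRP1 (SE 0.79, adjusted p = 0.48) and -0.12 for WNT2 (SE 1.25, adjusted p = 0.965). WNT5A was at -0.23 (SE 0.63), WNT5B at 0.68 (SE 0.62), DKK1 at 0.11 (SE 0.60) and DKK3 at -0.25 (SE 0.62), and no adjusted p among these 4 was under 0.556. DKK2 had 82 counts in ICM 1 and 2 and 0 in WT, at least 18.6-fold, and its calls are a description for the reason given above. The fitted values depended on which of the 2 libraries was kept. Without ICM 1, DKK1 and DKK2 were higher and the other 7 lower (WNT16 at -4.39 and WNT2 at -3.65). Without ICM 2, WNT2 (0.84), WNT5B (1.34) and DKK2 were higher, and DKK1 (-1.04) and FRZB (-1.74) lower. These fits hold 1 ICM library and no spread between ICM libraries, so no calls are given from them here. The summed fibroblast markers were 19920 CPM in ICM 1 and 4972 CPM in ICM 2. CD14 was at 12.9 and 0.700 CPM, and reads outside annotated features made up 16.4% and 4.73% of reads, against 8.10% and 8.87% in WT. Small RNA genes took 5.98% and 3.12% of counts against 0.00821% and 0.00831% in WT, and mitochondrial transcripts 0.454% and 0.0677% against 3.54% and 3.11%. The part of these in the result was not tested. None of the 44 other pathway genes was called (9 at an unadjusted p under 0.05, 6 with DESeq2), with AXIN2 at -0.82 (SE 0.47, adjusted p = 0.37) and LEF1 at -1.27 (SE 0.67, adjusted p = 0.342).

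Set directly against each other, ICM 3 and 4 and ICM 1 and 2 differed in none of the 9 genes at an adjusted p under 0.05 (edgeR; 5 at an unadjusted p under 0.05 and 3 with DESeq2), against 1.25% of all genes. WNT16 had 1 count against 1391, a ratio of 664.9 (119.1 to 26280; adjusted p = 0.0539), and WNT2 had 1 against 654, a ratio of 312.6 (55.9 to 12370; adjusted p = 0.0772). WNT5B was at -2.49 (SE 0.67, adjusted p = 0.099) and SFRP1 at -2.18 (SE 0.91, adjusted p = 0.21). Nearly all of these ICM 1 and 2 counts came from ICM 1. Against ICM 2 alone, with 97 counts of WNT16 and 36 of WNT2, the ratios were 88.1 (15.4 to 3514) and 32.7 (5.503 to 1326). WNT16 and WNT2 stayed lower in ICM 3 and 4 whichever 1 of the 4 libraries was left out. None of the 44 other pathway genes was called (11 at an unadjusted p under 0.05, 6 with DESeq2).

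The knockdowns on the ICM background gave no call among the 9 genes tested. For the libraries labelled siSRRM2 against ICM 1 and 2 the background was 0% of all genes (1459 genes at an unadjusted p under 0.05, of which none was among the 9; DESeq2 called 204 genes, WNT2 among them). WNT2 was at -3.63 (SE 1.49, edgeR adjusted p = 0.651, DESeq2 adjusted p = 0.0444), a value that was -0.20 without ICM 1 and -4.57 without ICM 2. SFRP1 was at -1.52 (SE 0.81, edgeR adjusted p = 0.678), with 0.07 without ICM 1 and -2.26 without ICM 2. A fit without 1 ICM library holds no spread between ICM libraries, so no p-value is given for it. Replicate 2 under this label was at 95.4% of ICM 2 for WNT5A, 96.6% for DKK3 and 98.7% for SFRP1, but at 151.3% for WNT16, 80.2% for WNT5B and 30.7% for DKK1. Directions depended on the ICM library left out. DKK1 was lower without ICM 1 and higher without ICM 2, WNT16 was the reverse, and WNT5B was lower in both fits. Of the 44 other pathway genes none was called (4 unadjusted, 1 with DESeq2). The 1 called with DESeq2 was RSPO2, at 2.60 to 2.94 CPM against 0.0410 to 0.0553 CPM in ICM 1 and 2. Its log2 fold change was 5.79 (SE 0.50, edgeR adjusted p = 0.463).

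For the libraries labelled siBANF1 the background was also 0%, with 34 genes at an unadjusted p under 0.05 and none with DESeq2, and none of the 9 or of the 44 in either. WNT2 was at -2.78 (SE 1.43, edgeR adjusted p = 1) and SFRP1 at -1.47 (SE 0.87, adjusted p = 1). In siBANF1 1 and ICM 1, WNT2 was at 1.32 against 12.7 CPM and SFRP1 at 79.0 against 285 CPM. In siBANF1 2 and ICM 2 they were at 0.687 against 0.663 CPM and 48.8 against 61.6 CPM. The 6 SFRP2 counts, against 0 in ICM 1 and 2, are at least 2.11-fold, all from siBANF1 1.

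For siCTCF against ICM 3 and 4 the background was 0% (31 genes at an unadjusted p under 0.05, WNT2 the only one of the 9 and none of the 44; DESeq2 called 0). WNT2 had 15 counts against 1, a ratio of 15.1 (2.31 to 633.5; log2 fold change 3.64, SE 1.38, edgeR adjusted p = 1), and WNT16 had 6 against 1, a ratio of 6.02 (0.730 to 276.9). For abundant genes siCTCF 1 lay beside ICM 3 and siCTCF 2 beside ICM 4, with DKK3 at 99.9% and 98.5%, SFRP1 at 97.2% and 113.2%, and DKK1 at 104.8% and 102% of the same-placed ICM library. WNT5A was at 112.1% and 84.98%, and WNT5B at 84.75% and 89.87%. CTCF itself was at 76.5% and 24.6% of the control mean in these libraries.

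Levels of different genes were compared per length, as CPM per kilobase of exon. DKK3 ranked first of the 10 in every library, with 40.05% to 56.8% of their summed per-length level. WNT5A ranked 2 or 3 and made up 86.6% to 96.0% of the 4 ligands. DKK1 ranged from 2.23% to 25.1% of the sum of 10, SFRP1 from 2.925% to 17.8% and WNT16 from 0% to 2.585%. In every library, then, an inhibitor-family gene, DKK3, stood above WNT5A per length.

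**Figure D4:**
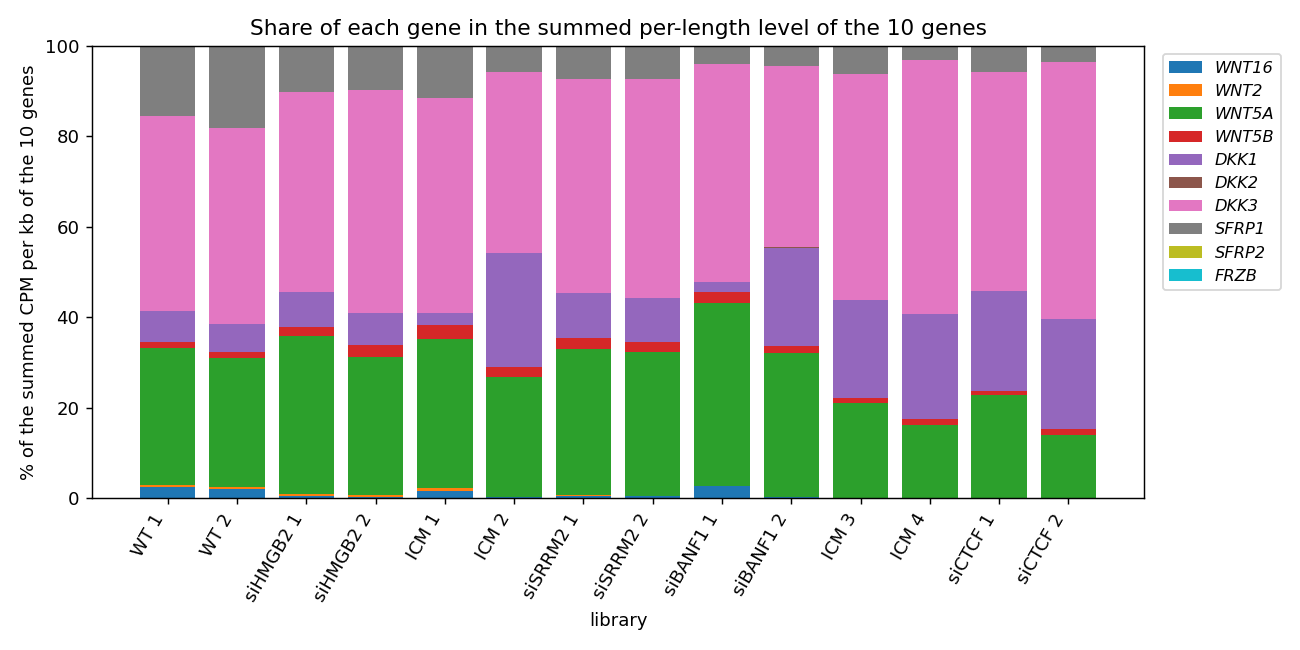
Share of each gene in the summed CPM per kilobase of the 10 genes, stacked to 100% for each library. DKK3 takes 40.05% to 56.8%, and DKK1 widens to 25.1% at most.

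Across the 14 libraries WNT5A followed WNT5B (Pearson r 0.930 of log2(CPM + 0.5)) and DKK3 (r 0.918), and WNT2 followed SFRP1 (r 0.914), while WNT16 against DKK1 gave r -0.541. The points share treatment, set and depth, so these are descriptions over 14 libraries. Among 9202 genes of at least 10 CPM on average, the 3 most like WNT16 were DTNA, PTGS2 and CTSK (r 0.980, 0.972 and 0.972). The gene most like each of the others was DAAM2 for WNT2 (r 0.978), A2M for WNT5A (r 0.975), NFE2L3 for WNT5B (r 0.982), JPT2 for DKK1 (r 0.934), OARD1 for DKK2 (r 0.960), CACNA1H for DKK3 (r 0.983), IGFBP5 for SFRP1 (r 0.966) and MEX3B for FRZB (r 0.962).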

How the data were processed

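RNA-seq was done on 14 libraries of IMR90 cells (total RNA, TruSeq kit, paired-end reads on a NovaSeq6000, per the labels' protocols). The authors deposited 1 file per library with raw counts of reads per gene symbol, replicates not pooled. STAR 2.7.3a, HTSeq 0.12.4, DESeq2 1.36.0 and the build hg38 are named per the submitters' processing notes, which give no role for each, and the annotation release and strand setting are not given in the sources used here. Lines for reads without a gene (12.8% to 41.8% of a library) entered neither library sizes nor tests. CPM was each count scaled to 1e+06 gene counts. Genes were kept by filterByExpr over the 7 groups (19126 of 54628), scaled by TMM and tested with edgeR 4.0.16 (quasi-likelihood, R 4.3.3) on the compared libraries only, which leaves 2 residual degrees of freedom, with Benjamini-Hochberg adjustment over all genes kept and a threshold of 0.05. SE is the absolute log2 fold change divided by the square root of the test's F value, so it is derived from the test. The test was also run on counts simulated from its own model, with a spread set by expression level only. That setting has no library that stands apart over many genes, as ICM 1 and 2 do, so nothing is read from it. Alternatives were other scaling, no filter, DESeq2 1.42.0, a single fit of all libraries, other ICM controls, a replicate block and leaving out each library. Replicates of every group differed by more than sampling noise (median chi-square per gene 1.11 to 50.8, where 0.455 is the sampling value), so none was treated as a duplicate. The members and the pathway and marker lists were chosen with earlier results of these data known. All 10 members are named, with, for each comparison, at most 3 called genes per pathway list by size of change, AXIN2 and LEF1, and for each member the 3 genes with the highest r. Beyond this rule, the receptor and target genes that rose in ICM 3 and 4, and RSPO2 under the siSRRM2 label, are named. Per-length levels used the union of GENCODE v29 exons. Gene positions and upstream windows are from RefSeq on GRCh38.p14.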

Additional observations from a re-analysis of the deposited data

Results flagged for a closer look

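Among the 4 ICM libraries, a single library stood apart in CPM for 3 of the genes. The measure was the gap to its nearest neighbour divided by the range of the 4 (above Dixon's 95% critical value). WNT16 in ICM 1, at 26.5 CPM, had a ratio of 0.933, the other libraries being at 1.79 CPM or below. WNT2 in ICM 1, at 12.7 CPM, had a ratio of 0.948, with the others at 0.663 CPM or below. DKK2 in ICM 2, at 1.23 CPM, had a ratio of 0.836, with the others at 0.335 CPM or below. Chance gives such a ratio in about 1 of 20 groups, and the 4 libraries come from 2 sets.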

How the results depend on the processing

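Counts of called members changed most with the ICM libraries used. A fit that leaves out 1 library holds no spread within that library's group. Counts of calls from such fits, here and below, describe no replicated difference. For ICM 1 and 2 against WT (0 called) no filter gave 2, DESeq2 1, the single fit 1 and the replicate block 3, and leaving out 1 library 0 to 9; for the other pathway genes (0) these gave 9, 6, 8, 6 and 0 to 30. For ICM 3 and 4 against WT the single fit gave 5 of the 8. For the siSRRM2 label against ICM 1 and 2 (0) DESeq2 gave 1 and ICM 3 and 4 as control 4, with 0 to 8 on leaving out 1 library; for pathway genes (0) DESeq2 gave 1, the replicate block 1, ICM 3 and 4 as control 24, and leaving out 1 library 0 to 31. For the siBANF1 label ICM 3 and 4 as control gave 1 member, and leaving out 1 library 0 to 1 pathway genes. For ICM 3 and 4 against ICM 1 and 2 (0) total counts gave 2 members, no filter 5, DESeq2 3, the single fit 3 and leaving out 1 library 2 to 7; pathway genes (0) gave 6, 6 and 13 with no filter, DESeq2 and the single fit, and 1 to 20. In siHMGB2 the 4 pathway genes became 2 with DESeq2, 0 in the single fit and 1 to 5 on leaving out 1 library. The causes were not tested.

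Members in siHMGB2 ranged, on leaving out 1 library, from -3.03 to -2.27 (WNT16), -0.13 to 0.33 (WNT2), 0.64 to 1.13 (WNT5B), -0.76 to -0.44 (SFRP1) and 0.19 to 0.95 (FRZB). Signs turned for ICM 1 and 2 against WT in WNT5B with all 4 ICM libraries (-0.09) and in DKK1 with the replicate block (-0.16), and on leaving out 1 library, which gave -3.65 to 0.84 for WNT2, -1.34 to 0.41 for WNT5A, -0.51 to 1.34 for WNT5B, -1.04 to 0.74 for DKK1 and -1.31 to 0.37 for DKK3. DKK1 in ICM 3 and 4 against WT gave -0.40 to 0.67. With ICM 3 and 4 as control WNT2 turned to 4.61 and SFRP1 to 0.57 (siSRRM2 label), and to 5.53 and 0.68 (siBANF1 label). On leaving out 1 library SFRP1 gave -2.26 to 0.07 (siSRRM2 label) and -2.22 to 0.14 (siBANF1 label), and WNT2 -4.57 to -0.20 (siSRRM2 label) and -3.71 to 0.68 (siBANF1 label). A lone library was assumed to vary like the other group.

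Over all genes, calls went from 2055 to 0 in the single fit for siHMGB2 (771 to 2643 on leaving out 1 library). For ICM 1 and 2 against WT, 33 became 89 with total counts, 206 with all 4 ICM libraries, 1445 with the replicate block, 1902 with DESeq2, 2580 in the single fit and 2658 with no filter, and 89 to 10843 on leaving out 1 library. For ICM 3 and 4 against WT, 8993 became 5796 in the single fit and 5439 to 10880 on leaving out 1 library. The siSRRM2 label (0) gave 204 with DESeq2, 34 in the single fit, 103 with the block and 8085 with ICM 3 and 4 as control, and 0 to 12025 on leaving out 1 library; the siBANF1 label (0) gave 7 with no filter, 1 with the block and 215, and 0 to 10; siCTCF (0) gave 4 with the block. ICM 3 and 4 against ICM 1 and 2 (239) gave 523, 2809, 2354 and 3739 with total counts, no filter, DESeq2 and the single fit, and 370 to 6982.

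The replicate block joined libraries of the same number, or, for ICM 3 and 4 with siCTCF, the order that their deposited names show. The labels do not say that a number marks a shared culture. Deviations of same-numbered libraries had r 0.147 (siHMGB2 and WT), -0.142 (ICM 1 and 2 and WT), 0.0229 (siSRRM2), 0.843 (siBANF1) and 0.706 (siCTCF). Taken by place, the libraries of ICM 3 and 4 gave 0.0828 with WT and 0.236 with ICM 1 and 2. With the block WNT16 in siHMGB2 was -2.63 and the count of called pathway genes 4. No paired analysis was possible for ICM 3 and 4 against WT or ICM 1 and 2 because the labels give these groups no shared number and place alone pairs nothing across sets; no block was fitted there. With 2 libraries per group and 22336161 to 58257456 counts, depth limits WNT16, WNT2, DKK2 and SFRP2 where they have few counts.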
